A study of Rattus norvegicus with 6 samples.

Results

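The subject is 10 genes of the BCL2 family, the proteins that decide at the mitochondrion whether a cell survives, in c-kit+ marrow cells of rats with and without haemolytic stress. The 10 genes were taken by symbol from the authors' table of 17172 genes and loci. They are the survival genes Bcl2, Bcl2l1 and Mcl1, the pore-forming genes Bax and Bak1, and the genes Bcl2l11, Bbc3, Pmaip1, Bid and Bad, whose products act upstream of the pore. All 10 had counts in all 6 libraries and all 10 passed the filter on low counts, which 13547 genes passed. The rats were of the ACI strain and 6 to 8 weeks old, and each group is labelled as 2 females and 1 male. In one group 3 rats received phenylhydrazine (PHZ), a compound that lyses red cells, by intraperitoneal injection at 100 mg/kg. The control group of 3 rats received phosphate-buffered saline (PBS) by the same route. Marrow of the hind legs was taken 36 h later and enriched on particles for c-kit, the stem cell factor receptor of haematopoietic progenitors, with 1 poly(A) RNA library per rat.

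As background, BCL2, BCL-XL (from Bcl2l1) and MCL1 hold the outer mitochondrial membrane closed, while BAX and BAK, once activated, open it and release cytochrome c, which starts the caspase cascade. The BH3-only proteins BIM (Bcl2l11), PUMA (Bbc3), NOXA (Pmaip1), BID and BAD carry stress signals to this switch, mainly by occupying the survival proteins. In red cell precursors, erythropoietin acts through its receptor and STAT5, and the factor GATA1 also acts on this family. BCL-XL is known as the survival protein of late erythroblasts, MCL1 of stem and early progenitor cells, and BCL2 of lymphocytes.

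The libraries held 13196249 to 19492793 expected counts, and globin transcripts took 9.57% to 22.0% of them, lowest in PHZ replicate 1. Kit was measured at 33.9 to 71.6 CPM (each count as a share of its library, scaled by the TMM method of edgeR) in all libraries. Markers of other marrow cells were abundant too, so the levels below are those of the enriched sample as a whole. Of the lists of marker genes, 6 of 11 erythroid genes were called higher in PHZ, and 7 of 11 B lineage and 6 of 10 T and NK lineage genes were called lower. Of all genes tested, 8.99% were called higher and 4.17% lower. The summed B lineage markers stood at 600 to 753 CPM in PBS and 131 to 234 CPM in PHZ libraries. Sums over a marker list, here and below, are shares of all counts of a library without TMM scaling. Summed neutrophil markers stood at 11457 to 22375 CPM in PBS and 5182 to 9501 CPM in PHZ libraries. For these markers edgeR called 0 of 9 (3 at an unadjusted p under 0.05 and 3 by DESeq2, against 34.1% and 23.6% of all genes). Summed monocyte and macrophage markers stood at 14535.9 to 16141.2 CPM in PBS and 8720.0 to 15438.5 CPM in PHZ libraries. Those of mast cells, basophils and eosinophils stood at 9609.3 to 15336.5 CPM in PBS and 5341.5 to 10613.9 CPM in PHZ libraries. PBS replicate 1 held 623 CPM of summed stromal and endothelial markers, against 28.0 to 90.5 CPM in the other libraries. It was also the highest library for most monocyte and macrophage markers, though not for Lyz2. Cd163 was at 628 CPM there against 162 to 315 CPM elsewhere, and C1qa at 711 against 192 to 245 CPM. Its summed neutrophil markers, 11457 CPM, were the lowest of the PBS libraries. In 3 libraries, PBS replicates 1 and 2 and PHZ replicate 3, Y-linked transcripts went against the labelled sex. Y-linked transcripts exceeded 3 counts in PBS replicate 1 and in PHZ replicates 2 and 3 only. By these transcripts sex was thus not balanced between the groups as the labels have it. In a bulk sample, fewer cells of a type and less RNA per cell cannot be told apart.

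Sequence is shown first for Bcl2l1, the member with the most annotated starts, because STAT5 dimers bind letters of the form TTCNNNGAA and GATA factors bind forms of GATAA. Both motifs were searched on both strands in the 250 bases before each RefSeq start (build GRCr8), for 8 of the 10 members with 11 windows. Bax and Bbc3 were not among them. TTCNNNGAA occurred in 7.67% of 33469 such windows of all genes and GATAA in 23.5%. Bcl2l1 held TTCNNNGAA at 2 places, each of which lies in a pair of overlapping windows of neighbouring starts, and Bad held 1 match of either motif. No other window of a member held either. The first Bcl2l1 match lies 94 and 229 bases before these starts, and the other 13 and 148 bases before them. Capitals mark the matched letters in these stretches of 30 bases, written on the strand of the gene. The Bcl2l1 stretches are chr3:161763460-161763489 and chr3:161763379-161763408 on the minus strand, and the Bad stretches are chr1:213562953-213562982 and chr1:213563071-213563100 on the plus strand, where GATAA is read on the opposite strand. A match is a description of the letters and not evidence of binding.
Bcl2l1, first match: agaaaggcatTTCGGAGAAaagggggtggg
Bcl2l1, the other match: tcaatttgacTTCATTGAAgtctcttagaa
Bad, TTCNNNGAA: acggccaagcTTCAGTGAAtgactctataa
Bad, GATAA on the opposite strand: gggctggaggacTTATCagccgaagcaggc

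The outermost of the 4 Bcl2l1 windows, chr3:161764776-161765025 on the minus strand, held neither motif and is printed for comparison with the stretches above.
Bcl2l1, outermost start: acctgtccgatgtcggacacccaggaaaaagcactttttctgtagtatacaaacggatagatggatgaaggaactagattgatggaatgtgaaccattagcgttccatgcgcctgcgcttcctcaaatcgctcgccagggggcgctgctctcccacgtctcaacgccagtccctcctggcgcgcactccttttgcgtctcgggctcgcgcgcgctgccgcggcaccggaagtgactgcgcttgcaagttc

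The first comparison was between the levels of the 10 genes within a group, per transcript length. In PBS libraries Mcl1 was the most abundant at 144 ± 29.8 FPKM (fragments per kilobase of transcript, scaled to library size; SD, n = 3), followed by Bcl2l1 at 47.0 ± 1.35 FPKM. The ranges of these 2 genes did not overlap with each other or with the gene next in order. Bak1, Bax, Bid, Pmaip1 and Bbc3 formed a middle group with means of 31.3, 24.2, 23.7, 22.6 and 21.4 FPKM, in which each gene overlapped the next. Bad at 8.84 ± 2.94, Bcl2l11 at 4.95 ± 0.11 and Bcl2 at 1.24 ± 0.42 FPKM were lower, and their ranges were apart. Bcl2 itself was thus the least abundant of the 10 genes. Its deposited model is 1 transcript of 1179 bases, so this level covers reads of that model only.

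**Figure D1:**
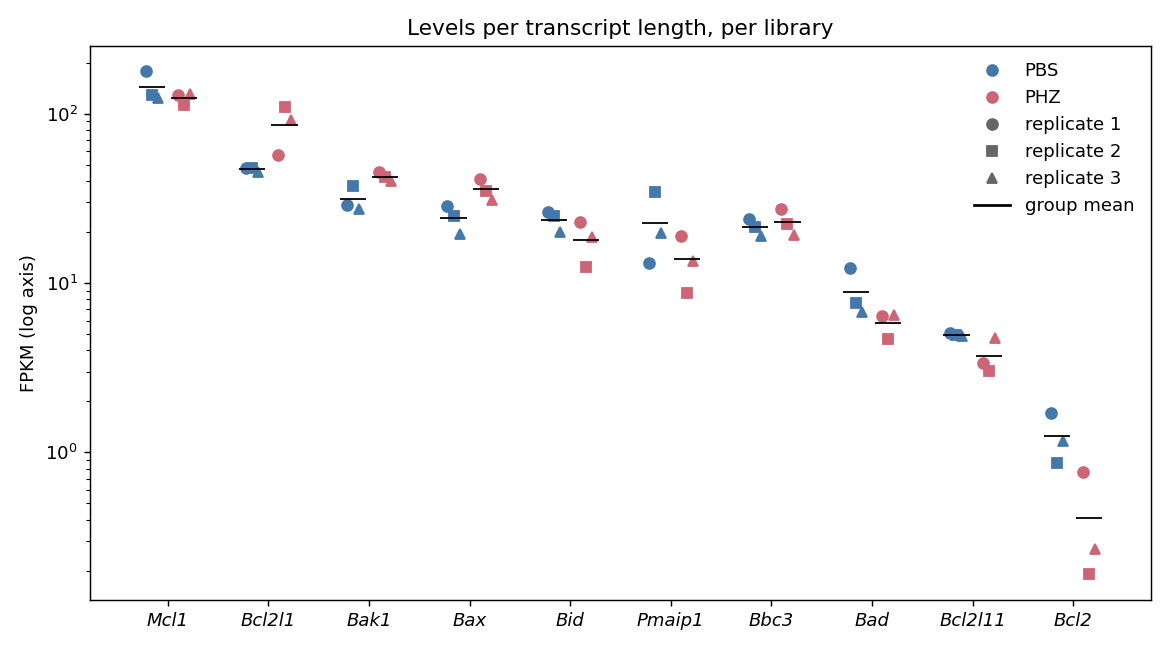
FPKM of the 10 genes on a log axis, in order of their PBS mean, with 1 point per library (shape, replicate; colour, group) and a line at each group mean. Mcl1 and Bcl2l1 lead in both groups and Bcl2 is lowest, at 0.87 to 1.70 FPKM in PBS and 0.19 to 0.77 FPKM in PHZ libraries.

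In PHZ libraries the order began in the same way, with Mcl1 at 124 ± 9.84 and Bcl2l1 at 86.2 ± 26.7 FPKM (SD, n = 3). Their ranges, 113 to 130 for Mcl1 and 57.0 to 109 for Bcl2l1, came close without overlapping. Bak1 at 42.5 and Bax at 35.8 FPKM overlapped with each other and stood apart from Bbc3 at 22.9, Bid at 18.0 and Pmaip1 at 13.8 FPKM, which overlapped in turn. Bad (5.82 FPKM) and Bcl2l11 (3.72 FPKM) overlapped, and Bcl2 closed the order at 0.41 FPKM. The Pmaip1 model is 318 bases long and rested on 42 to 150 counts per library, so its level per length is among the less certain.

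The other comparison asked how each gene differed between PHZ and PBS rats. None of the 10 genes passed edgeR's quasi-likelihood test at an adjusted p under 0.05, against 13.2% of all genes tested (1218 higher and 565 lower in PHZ). Of all calls 68.3% were higher in PHZ, against 58.7% with upper-quartile scaling and 56.8% with DESeq2. At an unadjusted p under 0.05 there were 4 of the 10, Bcl2, Bcl2l1, Bax and Bak1, against 34.1% of all genes. DESeq2 called 3 of them, Bcl2l1, Bax and Bak1, against 23.6% of all genes, and limma on FPKM called none. The groups did not overlap in 5 of the 10 genes (Bcl2l1, Bax and Bak1 higher, Bcl2 and Bad lower in PHZ), against 41.7% of all genes (22.5% higher and 19.2% lower). The median log2 fold change of the 10 genes was -0.26, and -0.04 over all genes tested. The shares at an unadjusted p under 0.05 and without overlap were near those of all genes, so these counts are no result about the family.

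Of the survival genes, Bcl2l1 (Entrez gene 24888), which encodes BCL-XL, was the only one with a higher estimate in PHZ. It stood at 114, 111 and 118 CPM in PBS replicates 1 to 3 and at 131, 300.0 and 232 CPM in PHZ replicates 1 to 3. The PBS libraries were close together, all 3 PHZ libraries were above them, and PHZ replicate 1 was only just above. The log2 fold change was 0.95 ± 0.29 (SE), a 1.94-fold higher mean, with edgeR adjusted p = 0.0714. Without PHZ replicate 1 it was 1.23 and was called (edgeR adjusted p = 0.0228), and DESeq2 also called it (adjusted p = 0.013). Without PHZ replicate 2 it was 0.68 (edgeR adjusted p = 0.175). The deposited gene joins several transcripts, so the long and short BCL-X forms, which act in opposite ways, were not separated. Summed erythroid markers, mostly globin, were at 96405 to 193451 CPM in PBS and 87598 to 210054 CPM in PHZ libraries, and 6 of 11 were called higher (Epb42, Ank1, Rhag, Klf1, Tfrc and Gata1). Their part in the Bcl2l1 difference was not tested.

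**Figure D2:**
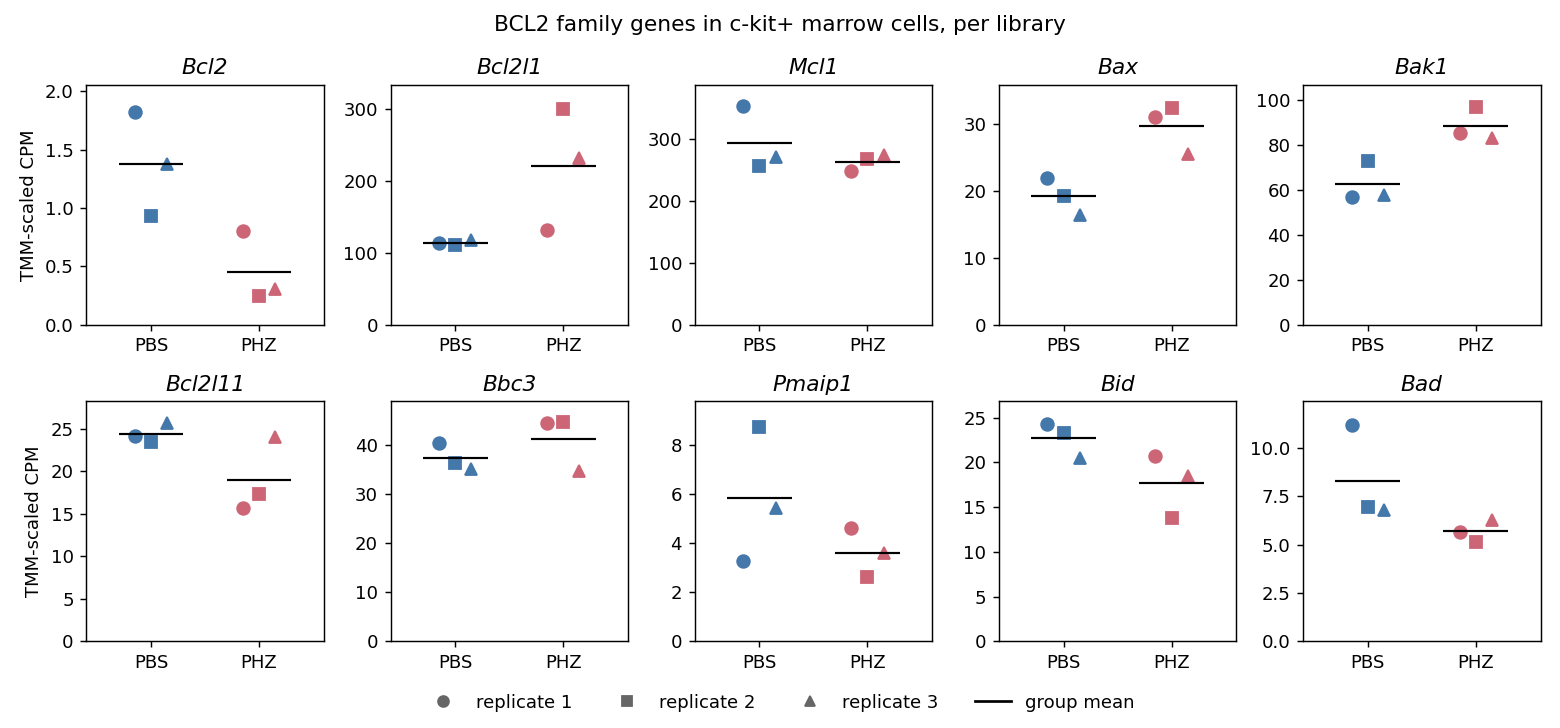
TMM-scaled CPM of each of the 10 genes, with 1 point per library (shape, replicate) and a line at the group mean, on linear axes from 0. The groups are apart in Bcl2, Bcl2l1, Bax, Bak1 and Bad, and PHZ replicate 1 is the lowest PHZ point of Bcl2l1 and the highest of Bcl2.

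Mcl1 (Entrez gene 60430), the most abundant of the survival genes, differed little. It was at 354, 256 and 271 CPM in PBS replicates 1 to 3 and at 249, 267 and 274 CPM in PHZ replicates 1 to 3. The groups overlapped, and 1 library, PBS replicate 1, was above the other 5. The log2 fold change was -0.16 ± 0.16 (SE; edgeR adjusted p = 0.524), and 0.003 without PBS replicate 1 (adjusted p = 0.989). The 3 genes most like Mcl1 over the 6 libraries were Lepr, Cpq and Cdh1 (Pearson r of log2 CPM 0.997, 0.992 and 0.990 among 8721 genes). They were selected for this likeness, which rests largely on PBS replicate 1, the highest library in all 3. Lepr, the leptin receptor and a stromal marker, was at 39.9 CPM in PBS replicate 1 and at 5.79 to 9.27 CPM elsewhere. Most macrophage markers were highest in that library too. The part of stromal cells or macrophages in the Mcl1 value was not tested.

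Bcl2 (Entrez gene 24224) was at the limit of measurement. It had 30, 16 and 21 counts in PBS replicates 1 to 3 and 17, 4 and 4 counts in PHZ replicates 1 to 3, which are 1.82, 0.93 and 1.38 CPM and 0.81, 0.25 and 0.31 CPM. The groups were apart, but PHZ replicate 1 lay just under the lowest PBS library. The log2 fold change was -1.55 ± 0.59 (SE; edgeR adjusted p = 0.117), and -2.27 without PHZ replicate 1 (adjusted p = 0.0608). The authors' deposited table marks Bcl2 as down in PHZ (log2 ratio -1.60) and marks none of the other 9 genes. All genes it marks have an absolute log2 ratio of at least 1.00, which Bcl2l1 at 0.88 in that table does not reach. B lineage markers were lower in PHZ libraries over the same rats (7 of 11 called, summed level 600 to 753 against 131 to 234 CPM), and their part in the Bcl2 difference was not tested.

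The pore-forming genes had higher estimates in PHZ. Bax (Entrez gene 24887) was at 21.9, 19.3 and 16.4 CPM in PBS replicates 1 to 3 and at 31.0, 32.3 and 25.5 CPM in PHZ replicates 1 to 3. Every PHZ library was above every PBS library, with a log2 fold change of 0.63 ± 0.17 (SE; edgeR adjusted p = 0.0546). Bak1 (Entrez gene 116502) was at 56.6, 72.6 and 57.8 CPM in PBS rats and at 85.2, 96.6 and 83.0 CPM in PHZ rats. Here too the groups were apart, with a log2 fold change of 0.50 ± 0.15 (SE; edgeR adjusted p = 0.0644). Both were called by DESeq2, with adjusted p = 0.0178 for Bax and 0.0294 for Bak1. In PHZ rats the mean and SD were 29.6 ± 3.61 CPM for Bax, 88.3 ± 7.30 CPM for Bak1 and 221 ± 84.8 CPM for Bcl2l1. Relative to its mean, Bcl2l1 thus spread most in PHZ. In PBS it spread least, at 114 ± 3.48 CPM against 19.2 ± 2.72 CPM for Bax and 62.3 ± 8.93 CPM for Bak1.

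The BH3-only genes went in both directions and none was called. Bcl2l11, which encodes BIM, was at 24.2, 23.4 and 25.6 CPM in PBS rats and at 15.6, 17.3 and 24.1 CPM in PHZ rats, so that PHZ replicate 3 lay within the PBS range (log2 fold change -0.36 ± 0.19, SE; edgeR adjusted p = 0.226). Bid, which is cut by caspase 8 to link death receptors to the mitochondrion, overlapped as well, at 20.5 to 24.3 CPM in PBS rats and 13.8 to 20.7 CPM in PHZ rats (log2 fold change -0.36 ± 0.19). Bad, whose product is held inactive by survival kinases, was at 6.81 to 11.2 CPM in PBS rats and 5.12 to 6.28 CPM in PHZ rats, apart by a small gap (log2 fold change -0.55 ± 0.27, SE; edgeR adjusted p = 0.207). Bbc3, which encodes PUMA, overlapped at 35.2 to 40.4 CPM in PBS rats and 34.6 to 44.8 CPM in PHZ rats (log2 fold change 0.15 ± 0.15). Pmaip1, which encodes NOXA, varied most among PBS rats relative to its mean, at 3.28, 8.73 and 5.44 CPM, and was at 4.60, 2.62 and 3.60 CPM in PHZ rats (log2 fold change -0.69 ± 0.43, SE; edgeR adjusted p = 0.293).

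Ratios between members within a library do not depend on the scaling of libraries. The ratio of Bcl2l1 to Mcl1 in FPKM was 0.27, 0.37 and 0.37 in PBS and 0.44, 0.97 and 0.71 in PHZ replicates 1 to 3. The 3 PHZ ratios were above the 3 PBS ratios, and that of PHZ replicate 2 was near equal levels. The geometric mean ratio was 2.03 times as high in PHZ rats, with a two-sided exact permutation p of 0.1, the smallest that 3 against 3 libraries allow. Mcl1 differed little (log2 fold change -0.16), so this ratio largely repeats the 1.94-fold difference of Bcl2l1 and is no separate support. The ratio of Bcl2l1 to Bcl2 ran from 28.0 to 55.1 in PBS and from 74.0 to 576 in PHZ libraries, and that of Bax to Bcl2 from 16.7 to 28.7 and from 53.7 to 184 (exact permutation p = 0.1 for both). Both rest on the 4 to 30 counts of Bcl2. Bcl2l1 and Bax were higher, and Bcl2 was lower, in every PHZ library than in every PBS library. The separation of both ratios to Bcl2, and so their p-values, follows from that and adds no further support. The 3 p-values are 0.1 after Benjamini-Hochberg adjustment too.

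Over the 6 libraries, the genes most like Bcl2l1 were Trim10, Fn3k and Cryzl1, with Pearson r of log2 CPM of 0.998 each among 8721 genes. Trim10 encodes a tripartite motif protein of erythroid cells and Fn3k fructosamine 3 kinase, an enzyme abundant in red cells. Trim10 was at 78.3 to 82.9 CPM in PBS libraries and at 90.2, 231 and 168 CPM in PHZ replicates 1 to 3. Fn3k was at 19.1 to 20.8 CPM in PBS libraries and at 23.0, 58.1 and 41.4 CPM in PHZ replicates 1 to 3. Cryzl1 differed less, at 12.98 to 13.49 CPM in PBS libraries and at 14.3, 19.5 and 17.8 CPM in PHZ replicates 1 to 3. The log2 fold changes of Trim10, Fn3k and Cryzl1 were 1.00, 1.04 and 0.37. None of these genes was called (edgeR adjusted p = 0.0818, 0.0742 and 0.168). The likeness is a description over 6 libraries that share their treatment, and a shared order of libraries follows from the selection.

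The erythropoietin receptor gene Epor showed the same order of PHZ libraries, at 1.12, 2.65 and 2.15 times its PBS mean in PHZ replicates 1 to 3, beside 1.15, 2.63 and 2.04 times for Bcl2l1. Epor had a mean of 67.0 ± 8.17 CPM in PBS rats against 132 ± 52.2 CPM in PHZ rats (SD, n = 3) and was not called by edgeR (adjusted p = 0.0792). PHZ replicate 1, at 75.3 CPM, lay within the PBS range of 59.0 to 75.3 CPM, so the groups overlapped. Epor was called in 3 of 17 alternatives, with DESeq2 (adjusted p = 0.017), without PHZ replicate 1 (log2 fold change 1.27, edgeR adjusted p = 0.023) and without both libraries numbered 1 (edgeR adjusted p = 0.0125). Gata1 rose 2.34-fold, to 1.80, 3.11 and 2.12 times its PBS mean in PHZ replicates 1 to 3 (edgeR adjusted p = 0.0247), so PHZ replicate 1 stood further from the PBS libraries than for Bcl2l1. Stat5a at 66.4 ± 8.97 and 69.5 ± 9.27 CPM and Stat5b at 110 ± 5.89 and 97.2 ± 21.1 CPM (SD, n = 3) overlapped between PBS and PHZ rats. PHZ replicate 1 also had the lowest share of globin transcripts, and the part of erythroid maturity in these values was not tested.

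**Figure D3:**
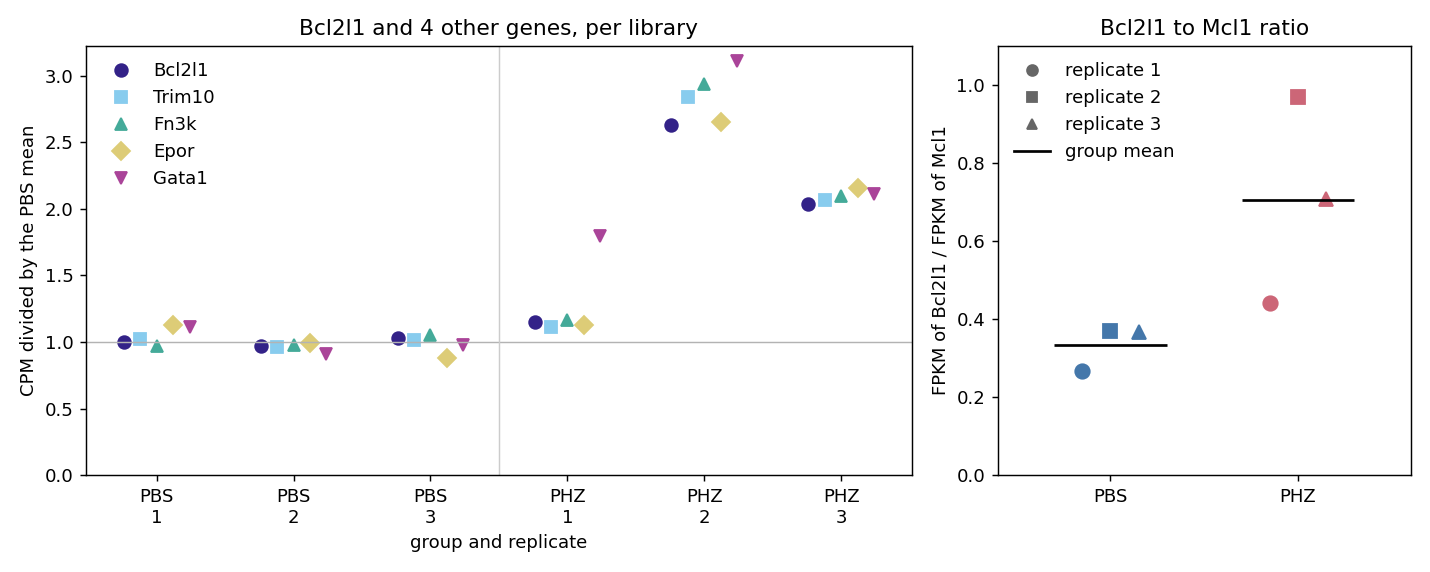
Left, CPM of Bcl2l1, Trim10, Fn3k, Epor and Gata1 in each library divided by the gene's PBS mean; right, the FPKM ratio of Bcl2l1 to Mcl1 in each library with group means. In PHZ replicate 1 all genes but Gata1 lie within 1.11 to 1.16 times their PBS mean, while in PHZ replicates 2 and 3 all 5 lie at 2.04 times or more.

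For Bcl2 the most alike were Zbtb10, Rnf103 and Bin1 (Pearson r 0.997, 0.994 and 0.994 among 8722 genes over 6 libraries). Zbtb10, a zinc finger gene, was at 35.3 to 70.3 CPM in PBS libraries and at 25.9, 6.43 and 7.43 CPM in PHZ replicates 1 to 3 (edgeR adjusted p = 0.0775). Bin1, which encodes a membrane-bending adaptor, fell, with 33.1 to 49.7 CPM in PBS rats and 17.05 to 27.4 CPM in PHZ rats (log2 fold change -0.99; edgeR adjusted p = 0.0464). These genes were selected for their likeness to Bcl2 over the same 6 libraries, so a shared order of libraries follows from the selection.

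Among 59 tested genes of the wider cell death pathway, 10 rose and 2 fell, against 8.99% of all genes higher and 4.17% lower. Of the other 11 tested BCL2 relatives, 1 rose, 1 fell and 9 were not called (median log2 fold change 0.25). Bmf, a BH3-only gene whose product is held on the cytoskeleton by dynein light chain 2, fell 2.40-fold. It was at 29.0, 22.4 and 23.8 CPM in PBS rats and at 8.77, 7.43 and 15.2 CPM in PHZ rats, with no overlap (edgeR adjusted p = 0.0391). Dynll2, which encodes that light chain, rose 1.87-fold from 28.4 ± 5.66 to 53.3 ± 9.24 CPM (adjusted p by edgeR = 0.0351; SD over 3 rats). Bcl2l13, an outer membrane relative that serves as a mitophagy receptor, rose 1.52-fold, from 131 ± 10.2 to 200 ± 14.6 CPM (adjusted p by edgeR = 0.0319; SD over 3 rats).

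The other survival relatives were not called. Bcl2l2, which encodes BCL-W, was at 8.06 to 15.1 CPM in PBS rats and 12.1 to 15.1 CPM in PHZ rats (edgeR adjusted p = 0.539). Bcl2a1, a survival gene of myeloid and lymphoid cells, had means of 27.1 ± 10.8 CPM in PBS and 25.2 ± 10.6 CPM in PHZ rats (SD, n = 3), and replicate 1 was the highest library in both groups. Bnip3l, the mitophagy receptor of maturing reticulocytes, was at 321 to 520 CPM in PBS rats and 309 to 673 CPM in PHZ rats (edgeR adjusted p = 0.581). Bnip3, its relative, was picked out after its values were seen, at 40.9 CPM in PHZ replicate 1 and 1.97 to 7.99 CPM in the other 5 libraries (edgeR adjusted p = 0.170).

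**Figure D4:**
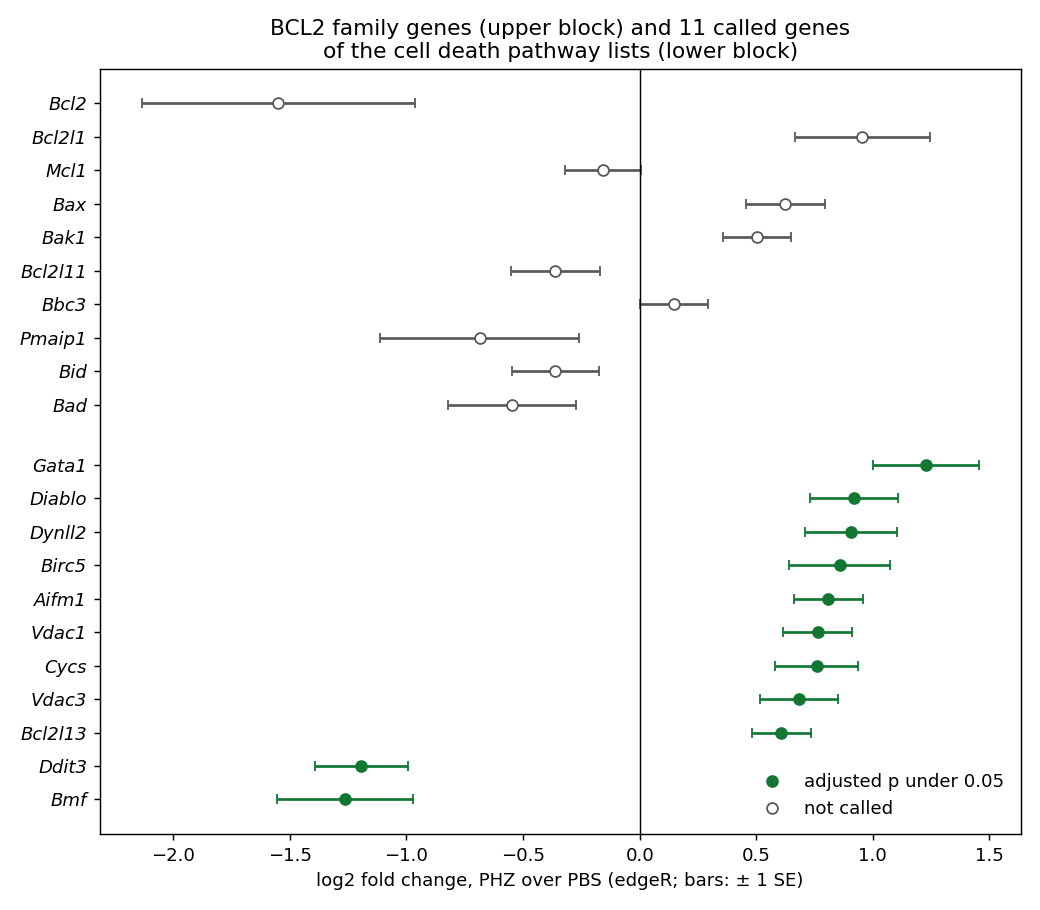
Log2 fold change of PHZ over PBS with its SE from edgeR on 3 against 3 libraries, for the 10 members (upper block) and 11 of the 12 called genes of the pathway lists (lower block). Filled green points passed the adjusted p of 0.05; none of the 10 members did, and Bmf and Ddit3 are the 2 called genes shown that were lower in PHZ.

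Genes of the outer membrane channel and of the mitochondrial intermembrane space were among those called. Of the 3 VDAC channel genes of the outer membrane, Vdac1 rose 1.70-fold, from 38.4 ± 1.69 to 65.2 ± 10.1 CPM (adjusted p by edgeR = 0.0271; SD over 3 rats), Vdac3 rose 1.61-fold, and Vdac2, whose product binds BAK, was not called at 172 ± 9.40 and 194 ± 22.6 CPM. Of 14 apoptosome and caspase genes 2 rose and 12 were not called (median log2 fold change -0.05). Cycs, cytochrome c, which also carries electrons in respiration, rose 1.69-fold from 46.1 ± 7.98 to 78.0 ± 10.6 CPM (adjusted p by edgeR = 0.0409; SD over 3 rats). Aifm1, a flavoprotein of the intermembrane space that also serves respiratory chain assembly, rose 1.75-fold (edgeR adjusted p = 0.024). At an unadjusted p under 0.05 there were 4 genes of this list, and DESeq2 called 4, against 34.1% and 23.6% of all genes. Beside Cycs and Aifm1, those at an unadjusted p under 0.05 were Casp8 and Casp1, chosen after their values were seen. Both were lower in every PHZ library than in every PBS library (log2 fold changes -0.82 and -0.52; edgeR adjusted p = 0.0504 and 0.0792). Apaf1 (74.4 ± 9.32 against 60.7 ± 11.3 CPM) and Casp9 (18.9 ± 4.26 against 14.9 ± 2.64 CPM) overlapped between PBS and PHZ libraries (SD, n = 3).

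Of 7 tested genes of the inhibitors of apoptosis and their antagonists, 2 rose and 5 were not called (median log2 fold change 0.03). Of the 7, 4 had an unadjusted p under 0.05 and DESeq2 called 4, against 34.1% and 23.6% of all genes. Diablo, whose product leaves the mitochondrion to block XIAP, rose 1.89-fold from 37.5 ± 2.36 to 71.0 ± 16.4 CPM (adjusted p by edgeR = 0.0311; SD over 3 rats). Birc5, survivin, which also serves chromosome segregation in mitosis, rose 1.81-fold from 47.3 ± 4.59 to 85.8 ± 24.6 CPM (adjusted p by edgeR = 0.0478; SD over 3 rats). Birc3 and Birc2, which encode the cellular inhibitors cIAP2 and cIAP1, were chosen after their values were seen. Birc3 was at 64.4, 51.5 and 62.8 CPM in PBS and at 32.9, 9.80 and 14.0 CPM in PHZ replicates 1 to 3, with no overlap (log2 fold change -1.65; edgeR adjusted p = 0.0588). Birc2 was at 55.2 to 58.7 CPM in PBS and at 41.2 to 46.2 CPM in PHZ libraries (log2 fold change -0.36; edgeR adjusted p = 0.0744). Of 8 tested death receptor genes edgeR called none (median log2 fold change -0.23). Here 1 had an unadjusted p under 0.05 and 1 was called by DESeq2, against the same shares of all genes. Cflar, which encodes an inhibitor of caspase 8 and was chosen after its values were seen, lay just outside the threshold and was lower in PHZ with no overlap (log2 fold change -0.69; edgeR adjusted p = 0.0504).

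Of 16 tested regulators of the family 3 rose, 1 fell and 12 were not called (median log2 fold change 0.12). Of the 16, 10 had an unadjusted p under 0.05 and DESeq2 called 10, against 34.1% and 23.6% of all genes. The groups did not overlap in 10, against 41.7% of all genes, so several regulators not called by edgeR were still apart. Ddit3, which encodes the stress factor CHOP, known to lower Bcl2 and raise Bcl2l11, fell 2.29-fold, from 114, 166 and 152 CPM to 74.3, 52.3 and 62.5 CPM (edgeR adjusted p = 0.0222). Without PBS replicate 2 or PBS replicate 3 none of the 12 pathway genes was called by edgeR, and no gene of the whole table was (3325 and 3291 genes at an unadjusted p under 0.05). Of the 12, Aifm1 and Gata1 were still called without PHZ replicate 2, and Bmf, Diablo and Vdac1 without PHZ replicate 3. Without PBS replicate 1 there were 8 still called, all but Bmf, Cycs, Birc5 and Diablo, and without PHZ replicate 1 there were 9, all but Bmf, Cycs and Vdac3.

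**Figure D5:**
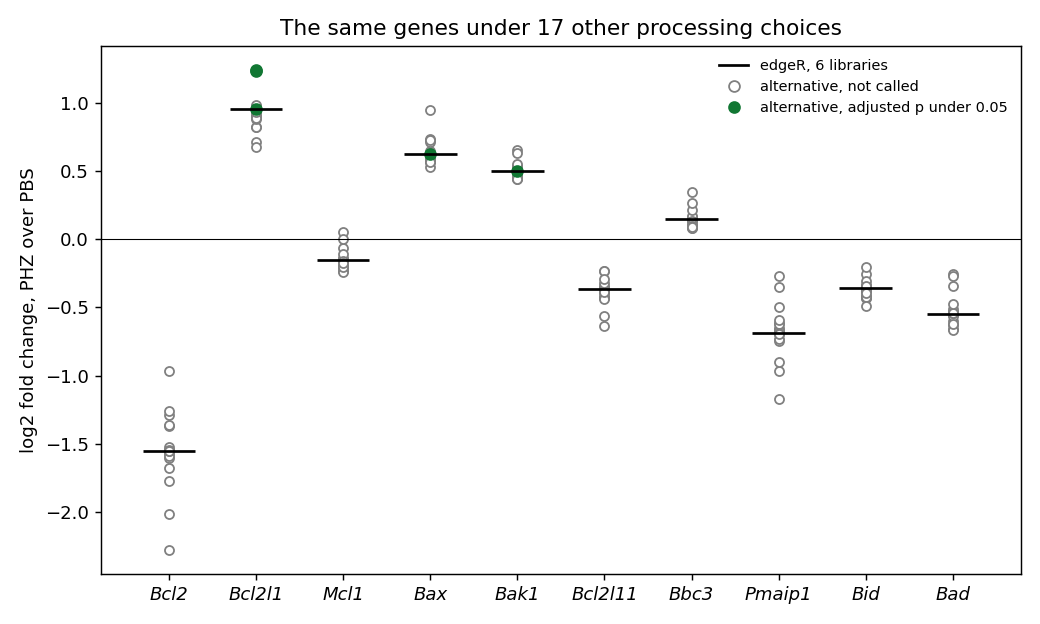
Log2 fold change of PHZ over PBS of the 10 genes with all 6 libraries (line) and under 17 other choices of filter, scaling, test, covariate or libraries (points; green, adjusted p under 0.05). Bcl2l1 was called in 3 of the 17, Bax and Bak1 in 1 each, and Mcl1 is the only one of the 10 whose points lie on both sides of 0.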

How the data were processed

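Poly(A) RNA of c-kit+ marrow cells was sequenced in 6 rats. The authors deposited an expected count per gene, an estimate that need not be whole, and an FPKM value for each library, per the file headers. Tools listed by the submitters' processing notes are RSEM, HISAT and GATK, with rn6 as build and no roles. Further settings were not stated there. The authors' deposited comparison table gives group means in FPKM, their log2 ratio (PHZ to PBS) and a Probability score. A gene not listed in a library was set to 0. Expected counts were rounded and tested with edgeR 4.0.16 in R 4.3.3 (TMM, filterByExpr, glmQLFit with robust estimation, glmQLFTest, treatment as the only term, 4 residual degrees of freedom), with Benjamini-Hochberg adjustment over 13547 genes and a threshold of 0.05. The SE was taken from the F statistic, as the size of the log2 fold change divided by its root. Alternatives used DESeq2 1.42.0 and limma 3.58.1 (log2(FPKM + 0.5) and log2(FPKM + 0.1)). A count of 3 in a library, the limit a count of 0 allows, is 0.154 to 0.227 CPM without TMM scaling. This limit covers counting error only.

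The 10 genes and all lists were chosen with earlier results of these data known. Named pathway genes are those called plus a fixed set of 13, of which 2 are not reported here. The genes most alike were the 3 with the highest Pearson r among genes with a symbol and a mean log2 CPM of 2 or more. Replicates were compared before use. Promoter letters came from RefSeq (GRCr8), not the build of the files.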

Additional observations from a re-analysis of the deposited data

How the results depend on the processing

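Of the 10 genes, 9 kept their direction in all 17 alternatives, of which 15 were planned and 2 (sex by Y-linked transcripts as a term, and leaving out both libraries numbered 1) were chosen after seeing the data. The exception was Mcl1, with a log2 fold change of 0.052 without both libraries numbered 1 and of -0.243 to 0.0032 when single libraries were left out (0.0032 without PBS replicate 1). None of the 10 was called with all 6 libraries in edgeR, 3 were with DESeq2, 1 without both libraries numbered 1, and 0 to 1 when single libraries were left out. The number of genes called in the whole table was 1783, 68.3% of them higher in PHZ (58.7% with upper-quartile scaling and 56.8% with DESeq2). It was 3389 with DESeq2, 928 with sex as labelled, 435 with sex by Y-linked transcripts, 2920 without both libraries numbered 1, and 0 after removing the 3 libraries whose Y-linked transcripts went against their label (1480 at an unadjusted p under 0.05). The labels do not pair the rats, and deviations of same-numbered libraries correlated at 0.21, 0.06 and 0.005. With the replicate block it was 0 as well (4641 at an unadjusted p under 0.05), and 0 of the 10 genes were called. Leaving out 1 library gave 0 to 1744 genes, with 0 without PBS replicate 2 or 3, 266 without PHZ replicate 2 and 572 without PHZ replicate 3. The cause was not tested. The 12 called pathway genes kept their direction throughout and were called in 4 to 11 of the 17 alternatives. Genes not called changed sign in some. Without the 3 libraries against their label, the log2 fold changes were 0.43 for Bcl2a1, -0.0707 for Bnip3l and -0.0392 for Stat5a. Leaving out single libraries gave -0.501 to 0.28 for Bcl2a1 (0.0655 without PHZ replicate 2 and 0.0614 without PHZ replicate 3), -2.07e-06 to 0.526 for Bnip3l and -0.0296 to 0.167 for Stat5a (-0.0269 without PBS replicate 1). Depth limits Bcl2 (4 to 30 counts) most.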
